A study of Rattus norvegicus with 3 samples.

Results

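Ppp1r1a, the gene of protein phosphatase inhibitor 1, was described together with its relatives Ppp1r1b and Ppp1r2, the catalytic subunits of protein phosphatase 1 (Ppp1ca, Ppp1cb and Ppp1cc) and of protein phosphatase 2A (Ppp2ca), and the calcineurin subunits Ppp3ca, Ppp3cb and Ppp3r1. Members were all probe sets whose only gene symbol in the platform annotation was one of these 10 genes, which gave 20 of the 20826 probe sets with a single gene, and 10 of 14217 genes. Ppp1r1a was chosen because its signal was among the 20 highest of all genes, so its level is given as a description without a test. The other genes were chosen for their relation to it, with earlier results of these data known. Thick ascending limb from the kidney outer medulla (mTAL) of male Sprague-Dawley rats aged 7 to 8 weeks was profiled on 3 Affymetrix arrays, which form a single group with no control or other tissue. All animals had been given furosemide (1 mg), a blocker of sodium chloride uptake in this segment, and heparin (250 u) 30 min before they were killed, and the tubules were freed with collagenase and hyaluronidase for 60 min and collected on 33.3% Percoll. Nothing in the labels tells if each sample was a rat or a pool, so p-values cover the spread among these 3 samples only, and that spread may be technical.

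Phosphatases of the PP1, PP2A and calcineurin families remove phosphate from serine and threonine residues, and each holoenzyme joins a catalytic subunit to regulatory subunits that set its target. Inhibitor 1 and its relative DARPP-32 (Ppp1r1b) block PP1 once protein kinase A, the kinase switched on by cyclic AMP, has phosphorylated them on a threonine, and calcineurin, which is activated by calcium and calmodulin, reverses this. Both proteins are known from the thick ascending limb, where hormones that raise cyclic AMP stimulate salt transport.

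Values are linear probe set signals whose mean, after leaving out 2% of the values at each end, was 999.993 on all arrays; they are given as mean ± SD over 3 arrays (n = 3 throughout). A gene counted as detected if it exceeded a cutoff on the arrays, set at percentile 95 of 64 genes typical of other tissues, which was 640 on replicate 1, 755 on replicate 2 and 621 on replicate 3. All 14 markers of the thick ascending limb were detected, among them the cotransporter gene Slc12a1 (39427 ± 2562), the furosemide target. The arrays were not alike in other cell types. Summed signals of 22 proximal tubule markers were 16410 on replicate 1, 56329 on replicate 2 and 96656 on replicate 3, and 4, 8 and 15 of them lay above the cutoff. Of these sums Aqp1, which is also counted as a thin limb marker, gave 7795, 28878 and 15354. Summed thick ascending limb markers were 271866, 264606 and 248143, and no marker was at 0. In such samples fewer cells of a type and less RNA per cell cannot be told apart. For Actb, the 3' control probe set exceeded the 5' one, a gap that widens with RNA degradation, by log2 values of 1.48, 1.18 and 1.95, and for Gapdh by 0.51, 0.43 and 0.60.

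The Ppp1r1a signal was 50416, 52896 and 44101 on replicates 1, 2 and 3 (49138 ± 4535). The 3 arrays differed by at most 1.20-fold, with replicate 3 lowest. By mean log2 signal it ranked 10 of 14217 genes, between Aldoa (49165 ± 3933) and Ldhb (48777 ± 1128), both enzymes of glycolysis, and 6.19 log2 units above the cutoff. The limit of 20 genes in the choice fell between Ndufb9 (44645 ± 2607), a subunit of respiratory complex I, and Slc25a5 (44449 ± 3018), the mitochondrial exchanger of adenine nucleotides, at rank 21. Hybridisation strength differs between probe sets, so such ranks order signals and not transcript amounts. The second probe set of Ppp1r1a gave 19253, 16200 and 16141 on replicates 1, 2 and 3. It too was above the cutoff on each array, by 4.68 log2 units on average. The probe sets disagreed on replicate 2, which was the highest array for the brighter one and close to the lowest for the other.

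**Figure D1:**
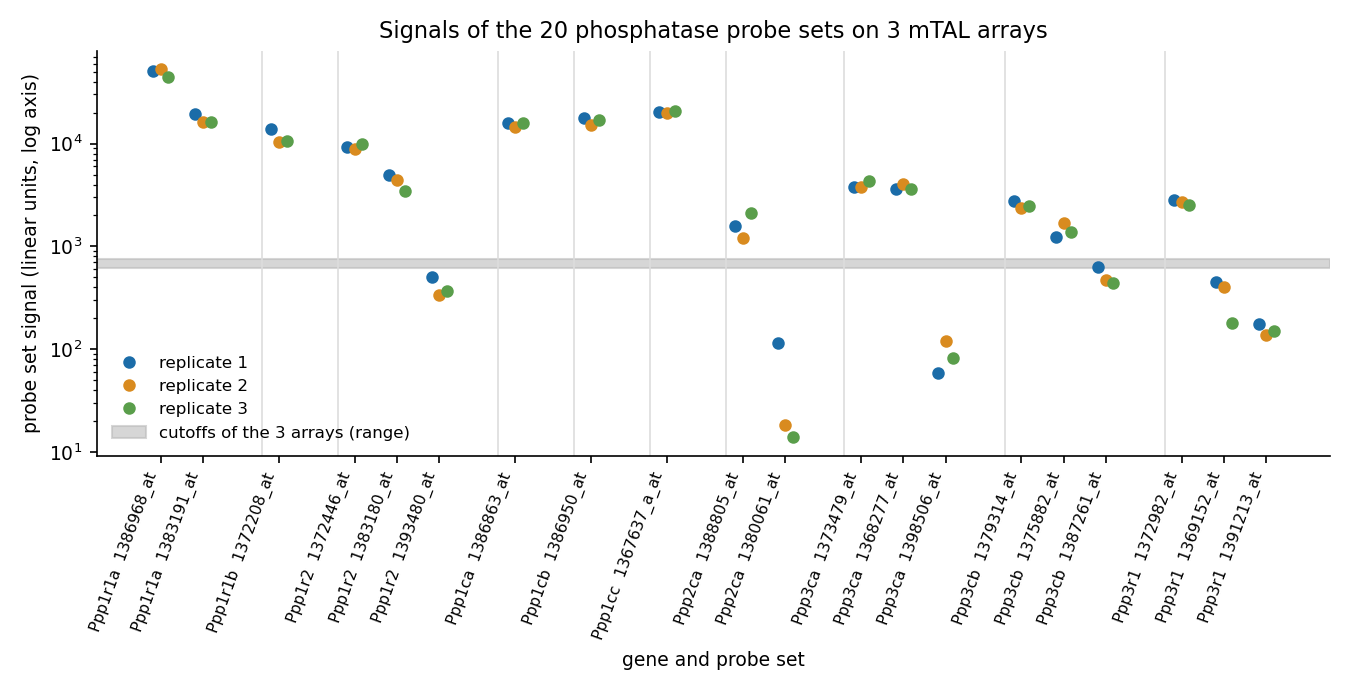
Signal of each of the 20 probe sets (log axis, linear signal units) on replicates 1, 2 and 3 of the mTAL, grouped by gene, with the range of the 3 array cutoffs as a grey band. Both Ppp1r1a probe sets lie above the band, while 6 probe sets of other genes lie below the cutoff of each array.

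All of the other 9 genes passed the detection test, in which 42.4% of all genes were called (limma on log2 signal minus cutoff, one-sided, Benjamini-Hochberg adjusted over 14217 genes). Ppp1r1a is left out of these counts, since its choice fixed its own call. The other 9 were chosen with earlier results of these data known, so their counts are a description. The count stayed at 9 of 9 without replicate 1, 2 or 3, where 38%, 41.7% and 37% of all genes were called. With the cutoff at percentile 99 of the other-tissue genes, 3 of the 9 were called beside 3.81% of all genes. With the mean of a gene's probe sets in place of the brightest, 7 of the 9 were called, beside 41.4%. The other-tissue genes were averaged alike in that setting, so its array cutoffs were lower, from 406 to 515. The 3 called at percentile 99 were the catalytic subunits of PP1. Of the 18 probe sets of these 9 genes 12 were called, against 33.2% of all probe sets. With Ppp1r1a included, 14 of all 20 were called. Of the 6 genes with several probe sets, 5 had at least 1 that was called and 1 that was not. The remaining gene was Ppp1r1a itself. The median of the 9 genes was 3.80 log2 units above the cutoff, beside -0.01 for all genes. Since 1 probe set per gene, the brightest, stood for the gene in the gene test, a gene with more probe sets had more chances to pass. Each array's own cutoff was subtracted, so the spread of the cutoff between arrays enters these p-values. The error from the choice of other-tissue genes does not.

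The remaining inhibitors of PP1 were both detected. Ppp1r1b, the gene of DARPP-32, best known from dopamine-responsive neurons of the striatum, had a signal of 14009, 10365 and 10600 on replicates 1, 2 and 3. Replicate 1 was the highest and the others were alike. The mean of 11658 ± 2039 lay 4.11 ± 0.19 (SE) log2 units above the cutoff (limma adjusted p = 0.000227). Of 15 measured striatal and neuronal genes, 0 were detected by limma and 0 had an unadjusted p under 0.05, with Drd1, the dopamine receptor of DARPP-32 neurons, at 57.3 ± 46.3 and Snap25, a synaptic protein gene, at 12.8 ± 7.23. Of these 15 genes 5 also belonged to the other-tissue genes that set the cutoff. The 15 genes summed to 864, 964 and 978 on the 3 arrays.

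Ppp1r2 encodes inhibitor 2, a partner of the PP1 catalytic subunit whose hold on it is loosened by the kinase GSK3. Its brightest probe set gave 9231, 8760 and 9980 on replicates 1, 2 and 3 (9324 ± 615), 3.80 ± 0.17 (SE) log2 units above the cutoff (limma adjusted p = 0.000213). A second probe set gave 4895, 4428 and 3441 and was called as well. The last gave 508, 340 and 370, below the cutoff on each array. Replicate 3 was highest on the first probe set and lowest on the second, so the probe sets show no common order of the arrays.

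The 3 catalytic subunits of PP1 were all detected, with array values close to each other. Ppp1ca, the alpha isoform, gave 15964, 14544 and 15802 on replicates 1, 2 and 3. Ppp1cb, the beta isoform that acts on myosin with its targeting subunits, gave 17576, 14993 and 16996. Ppp1cc, the gamma isoform, gave 20486, 19673 and 20820. Replicate 2 was the lowest array for each of them. They lay 4.53 ± 0.16, 4.62 ± 0.18 and 4.92 ± 0.16 (SE) log2 units above the cutoff (limma adjusted p = 0.000196 for each). Each gene had 1 probe set. The SD of Ppp1cc was 0.04 log2 units, and 6.07% of the 7086 genes with a mean above the cutoff had a smaller one. That share was 17.4% for Ppp1ca (SD 0.07) and 38.2% for Ppp1cb (SD 0.12).

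These isoforms are encoded at separate loci, and their promoters are shown because each of these closely related enzymes gave a strong signal. Windows are the 250 bases before the RefSeq start on the rat assembly GRCr8, read 5′ to 3′ on the gene's strand, with capitals on each GC box (GGGCGG, the site of Sp factors, or CCGCCC where it lies on the other strand).
Ppp1ca, chr1:210914326-210914575, forward strand: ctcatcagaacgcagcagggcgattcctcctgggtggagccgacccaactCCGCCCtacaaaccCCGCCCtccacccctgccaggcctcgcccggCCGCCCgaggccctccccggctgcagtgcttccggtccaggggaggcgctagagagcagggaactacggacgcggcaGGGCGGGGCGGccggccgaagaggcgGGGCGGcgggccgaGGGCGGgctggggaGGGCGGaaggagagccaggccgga
Ppp1cb, chr6:29712836-29713085, reverse strand: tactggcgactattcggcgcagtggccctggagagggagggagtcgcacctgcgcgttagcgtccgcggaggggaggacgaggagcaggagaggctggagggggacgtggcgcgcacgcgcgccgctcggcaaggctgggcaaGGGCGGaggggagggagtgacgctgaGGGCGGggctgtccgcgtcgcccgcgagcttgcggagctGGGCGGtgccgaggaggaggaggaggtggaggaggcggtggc
Ppp1cc, chr12:40061302-40061551, reverse strand: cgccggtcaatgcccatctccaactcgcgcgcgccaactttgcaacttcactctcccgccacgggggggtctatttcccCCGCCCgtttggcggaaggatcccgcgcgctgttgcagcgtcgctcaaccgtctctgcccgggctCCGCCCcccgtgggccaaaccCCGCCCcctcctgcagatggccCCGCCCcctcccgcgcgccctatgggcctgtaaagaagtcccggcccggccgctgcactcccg
Ppp1ca had 8 such matches, Ppp1cb 3 and Ppp1cc 4, counted on both strands with overlaps allowed. The G and C content was 75.2%, 73.6% and 71.2%, beside a median of 51.2% over all windows. Promoter windows were found for 8 of the 10 genes (not for Ppp1r1a and Ppp1r1b), and each of the 8 had at least 1 GC box. A GC box was present in 30.5% of all 33469 windows and in 54.2% of the windows of 11700 measured genes. Among measured genes 50.9% of those with a GC box were detected and 34.9% of those without, given as a description across genes. The TATA box letters TATAAA were in 12.9% of all windows and in none of the 8. A match of letters is not a bound site.

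**Figure D2:**
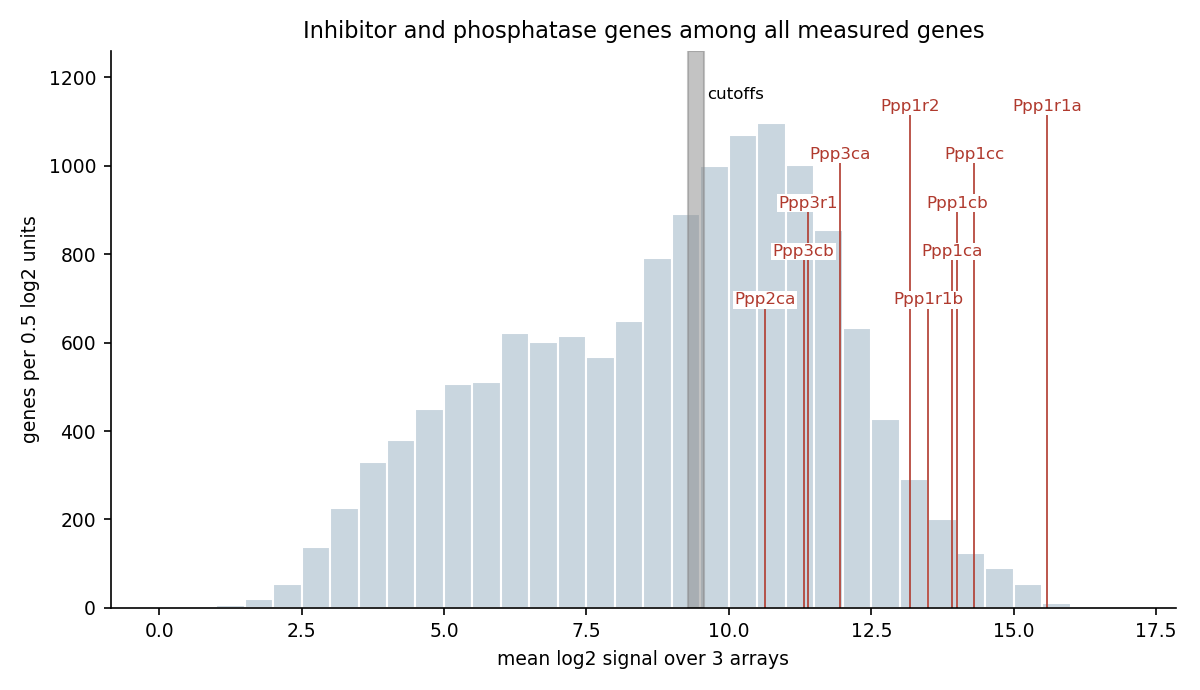
Number of genes per bin of mean log2 signal over the 3 arrays, for all 14217 genes, with red lines at the 10 inhibitor and phosphatase genes and a grey band over the 3 array cutoffs. Ppp1r1a stands at 15.58 in the upper tail and Ppp2ca at 10.64, nearest to the cutoffs.

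Ppp2ca, the alpha isoform of the PP2A catalytic subunit, ranked lowest by signal, at 4495 of 14217 genes. Its brighter probe set gave 1581 on replicate 1, 1203 on replicate 2 and 2116 on replicate 3 (1634 ± 459), 1.25 ± 0.26 (SE) log2 units above the cutoff (limma adjusted p = 0.0117). Replicate 3 was 1.76 times replicate 2, the widest range among the brightest probe sets of the 10 genes. The second probe set gave 116, 18.4 and 14.0, below the cutoff throughout. With the mean of its probe sets in place of the brightest, Ppp2ca lay at -1.01 and lost its call, although that setting's cutoffs were lower (406 to 515). Another probe set is annotated to both Ppp2ca and Ppp2cal1 and is therefore no member. It gave 12404, 12181 and 10557, and this signal cannot be assigned to either gene.

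The Ppp2ca promoter was the only one of the 8 windows to hold the cyclic AMP response element TGACGTCA, found in 1.59% of all windows and 2.64% of those of measured genes. Capitals mark this element and, after it, the GC box.
Ppp2ca, chr10:36858787-36859036, forward strand: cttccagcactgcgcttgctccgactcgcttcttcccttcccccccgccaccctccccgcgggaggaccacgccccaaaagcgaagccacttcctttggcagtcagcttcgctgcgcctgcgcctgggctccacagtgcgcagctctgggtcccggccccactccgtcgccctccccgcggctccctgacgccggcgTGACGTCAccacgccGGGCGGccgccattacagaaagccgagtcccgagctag
Of the 309 measured genes whose window held the element 49.8% were detected, beside 43.4% of the others.

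All calcineurin subunits among the members were detected. The catalytic subunit gene Ppp3cc, no member and named after its values were seen, was not (755 ± 27.9, limma adjusted p = 0.346). Ppp3ca, the alpha catalytic subunit, had a pair of probe sets at 3799, 3805 and 4311 and at 3606, 4033 and 3625 on replicates 1, 2 and 3. The brighter lay 2.57 ± 0.17 (SE) log2 units above the cutoff (limma adjusted p = 0.000377), and both were called. The last gave 59.0, 120 and 81.9 and was not. Ppp3cb, the beta catalytic subunit, gave 2793, 2361 and 2483 on its brightest probe set, 1.92 ± 0.17 (SE) above the cutoff (limma adjusted p = 0.000801). Its other probe sets gave 1222, 1687 and 1392, which was called, and 637, 477 and 444, which was not. Replicate 1 was the highest array on the brightest probe set (2793) and the lowest on the next (1222).

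Ppp3r1 encodes the calcium-binding B subunit that all calcineurin enzymes of somatic tissue need. Its brightest probe set gave 2806, 2726 and 2522 on replicates 1, 2 and 3, 2.002 ± 0.149 (SE) log2 units above the cutoff (limma adjusted p = 0.000512). The others gave 452, 408 and 179, and 178, 139 and 151, all below the cutoff. With the mean of its 3 probe sets the gene lay 0.19 above the lower cutoffs of that setting (406 to 515) and was not called. The 3 calcineurin genes therefore rest on some of their probe sets, and Ppp3r1 on 1 of 3.

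Among PP1 regulators beyond the members, single inhibitors and targeting subunits were detected. Of 33 measured, 14 passed the test (42.4%, as of all genes), with a median of -0.06 log2 units beside -0.01 for all genes. The highest were Ppp1r14b (7040 ± 742), a PP1 inhibitor switched on by phosphorylation, and Ppp1r15a (6327 ± 2030), the stress-induced subunit that directs PP1 to the initiation factor eIF2. Next came Ppp1r36 (3576 ± 206) and Ppp1r11 (3408 ± 391), the gene of inhibitor 3. Ppp1r15a was uneven, at 4124, 6733 and 8123 on replicates 1, 2 and 3. The lowest by mean log2 signal, by which all these lists were ordered, were Ppp1r1c (29.9 ± 40.4), the remaining relative of inhibitor 1, and Ppp1r3a (7.88 ± 3.38), the glycogen-targeting subunit of muscle, both with a limma adjusted p of 1.00.

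PP2A subunits and regulators included 20 detected genes of 25 measured (80%, beside 42.4% of all genes), with a median 1.96 log2 units above the cutoff. The regulatory subunit Ppp2r5a (15768 ± 1014) led the list and the second catalytic isoform Ppp2cb (14612 ± 793) followed. Ppp2cb gave 14532, 15442 and 13861 on the 3 arrays. The regulatory subunit Ppp2r3a (10705 ± 1889) and the scaffold subunit Ppp2r1a (5540 ± 85.8) came next. The lowest were the second scaffold isoform Ppp2r1b (810 ± 147, limma adjusted p = 0.295) and the brain subunit Ppp2r2c (25.6 ± 12.8).

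Of 13 calcineurin partners and targets 6 were detected (46.2%, beside 42.4% of all genes), with a median of 0.17 log2 units. They were led by Calm2 (22808 ± 2010), a calmodulin gene, and Fkbp1a (5926 ± 301), whose product is the receptor through which tacrolimus blocks calcineurin. The regulators Rcan2 (2649 ± 104) and Rcan1 (1924 ± 252) followed, and the lowest were the anchoring protein gene Akap5 (44.0 ± 5.71) and the testis B subunit Ppp3r2 (15.2 ± 7.64). Among 26 other serine-threonine phosphatase genes 17 were detected (65.4%, beside 42.4% of all genes), with a median of 1.29. The highest were the PP4 subunits Ppp4r2 (5903 ± 663) and Ppp4r3a (3519 ± 80.6), the metal-dependent phosphatase Ppm1b (5398 ± 532) and Ppm1k (4458 ± 719), the mitochondrial phosphatase of branched-chain keto acid dehydrogenase. Ppm1m (41.7 ± 42.5) and Ppm1n (14.3 ± 7.14) were lowest.

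Of 21 genes of the kinases that phosphorylate inhibitors 1 and 2 and DARPP-32, with their regulators, 12 were detected (57.1%, beside 42.4% of all genes), with a median of 1.21 beside -0.01 for all genes. The regulatory subunit Prkar1a of protein kinase A (9918 ± 179), the casein kinase genes Csnk2b (9098 ± 801) and Csnk1a1 (7456 ± 1084) and the catalytic subunit Prkacb (5034 ± 203) were highest. Prkg2 (43.7 ± 53.3), a cyclic GMP-dependent kinase, and Pkib (34.9 ± 34.0), an inhibitor of protein kinase A, were lowest by mean log2 signal. Cdk5, the kinase of a second threonine of DARPP-32, named after its values were seen, gave 971, 960 and 794 and missed the threshold (limma adjusted p = 0.0515).

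**Figure D3:**
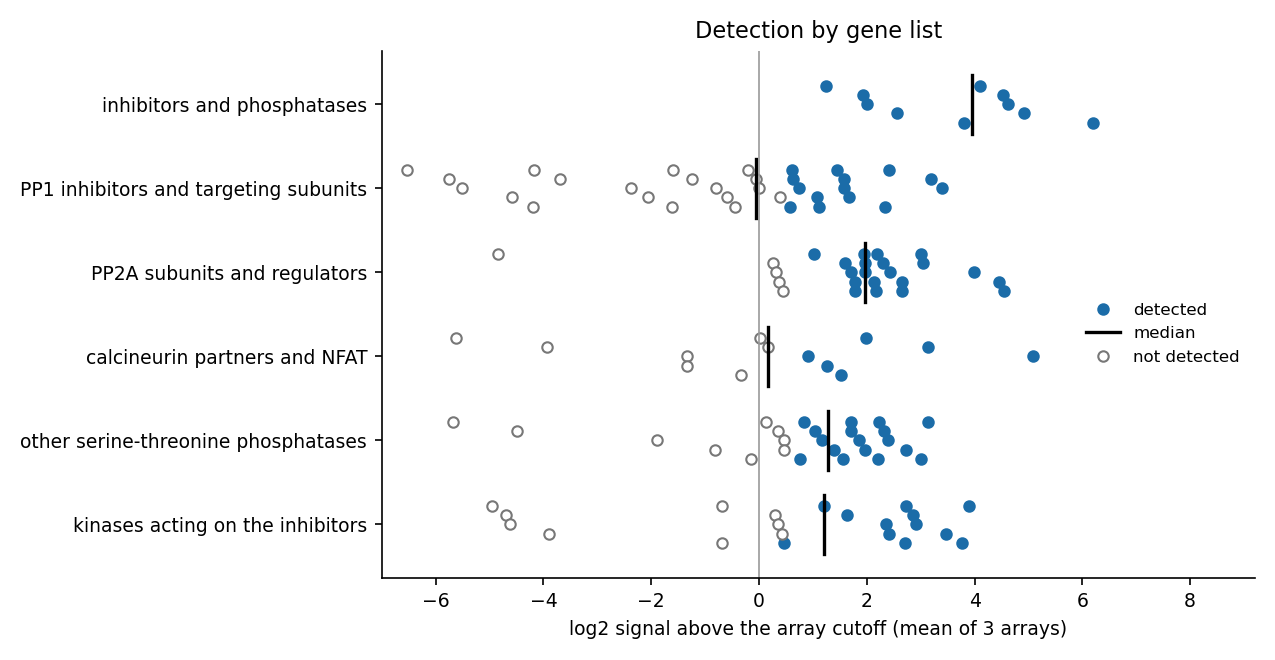
Mean log2 signal above the array cutoff for each gene of the 10 inhibitor and phosphatase genes and of 5 related lists, with filled points for detected genes, open points for others and a bar at the median. The 10 genes run from 1.25 to 6.19, or to 4.92 without Ppp1r1a, which was chosen by its signal. The PP1 regulators run from -6.52 to 3.39.

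Deviations between arrays were smaller for each of the 10 genes than for the median of the proximal tubule markers on replicates 1 and 3. After centring the arrays on their median genes, 8 of the 10 were highest on replicate 1. So were 46% of all genes and 55.8% of the 7086 genes with a mean above the cutoff. On replicate 2, 8 of the 10 were lowest, beside 37.2% of all genes and 41.8% of those 7086. On the deposited signals the order was less one-sided, with 5 of the 10 highest on replicate 1 (33.9% of all genes, 37.3% of the 7086). There 7 were lowest on replicate 2 (35.5% and 39.8%), with Ppp1r1a highest on replicate 2. No order of the arrays is therefore read from these counts. Centred members had median deviations from the other arrays of 0.17, -0.16 and -0.02 log2 units on replicates 1, 2 and 3. Ppp1r1a deviated by 0.17, 0.14 and -0.30 and Ppp1r1b by 0.52, -0.26 and -0.26. Ppp2ca had the widest deviations, 0.09, -0.64 and 0.54. The median of the thick ascending limb markers deviated by 0.20, -0.05 and -0.12, and that of the 22 proximal tubule markers by -2.18, 0.20 and 2.14, with 21 of 22 higher on replicate 3 than on replicate 1. Principal cell markers deviated by -1.09, 0.03 and 1.31 and 6 thin limb markers by -0.83, 0.97 and -0.08. Their part in the deviations of the members was not tested.

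**Figure D4:**
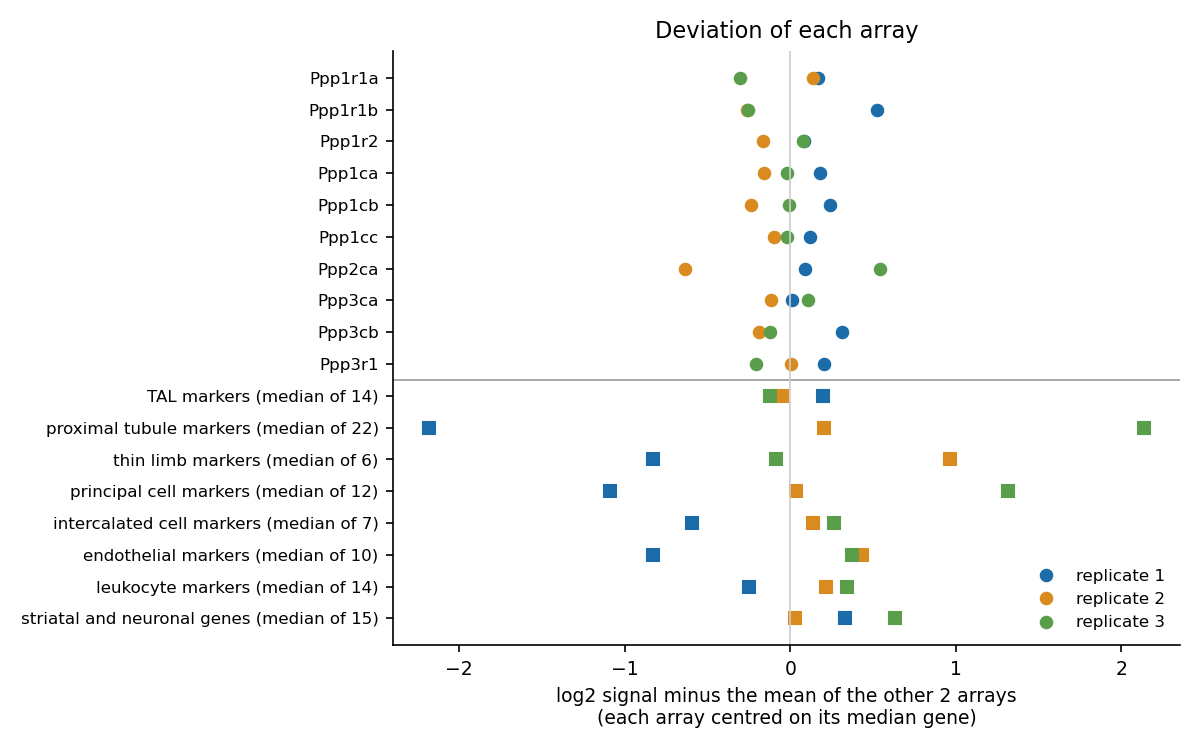
Log2 signal on each array minus that of the other 2 arrays on average, after centring on the median gene, for the 10 genes (circles) and the medians of marker lists (squares). Member deviations lie between -0.64 and 0.54, and those of the proximal tubule list between -2.18 and 2.14.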

How the data were processed

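Per the labels' protocols, total RNA was made into biotin-labelled cRNA by the Affymetrix method. The authors deposited 1 linear intensity per probe set and array; the software and normalization are not given in the sources used here. Of 31099 probe sets 57 were controls, 436 had several genes and 9780 none in the platform annotation, and 20758 of the 20826 with 1 gene matched RefSeq gene identifiers (GRCr8), with 0 symbols changed. Log2 was taken with no pseudocount. Each of the 4525 genes with several probe sets was represented by the brightest in mean log2. Detection used limma 3.58.1 in R 4.3.3 (lmFit, eBayes, one-sided, adjusted p under 0.05) on log2 signal minus the array's cutoff. The fit was also run on simulated data with a common cutoff for all arrays. That run does not check the use of cutoffs that differ between arrays. Precision is limited by the number of arrays. Of 326 list entries 292 were measured. Members and lists were chosen with earlier results of these data known. The text names all members and, of each related list, the 4 brightest detected genes and the 2 dimmest of all its genes, plus the genes at ranks 20 and 21; genes named otherwise serve as checks or neighbours. No likeness of patterns across samples was computed, because 3 arrays are too few. Promoter sequences came from RefSeq. The replicate numbers are those of the sample titles. Alternatives were other normalizations, a pseudocount, a filter on low signals, the mean of a gene's probe sets, other cutoffs and leaving out each replicate; 1 cutoff, without 4 genes also known from kidney or vessels, was added after the data were seen.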

Additional observations from a re-analysis of the deposited data

How the results depend on the processing

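Of 103 counts recomputed under 13 alternatives, 92 stayed within 1.5 times the reported count. Among these are the counts at a common 75th percentile, which could not change, since scaling an array scales its cutoff alike. The exceptions came from the cutoff. With percentile 99 of the other-tissue list, which lies between Cela1 (1800 ± 324) and Myh1 (42933 ± 2949) and so depends on Myh1, 542 of all genes (6028 in the reported setting, 3.81% against 42.4%), 4 of the 10 member genes and 5 of the 20 member probe sets were called, Ppp1r1a included in both (3 of 9 genes and 3 of 18 probe sets without it). At that cutoff 2.15% of all probe sets were called. The counts were 0 for PP1 inhibitors and targeting subunits, 2 for PP2A and 1 for calcineurin partners. They were 0 for other phosphatases and 0 for the kinases. Ppp2ca (-1.86), Ppp3ca (-0.54), Ppp3cb (-1.19) and Ppp3r1 (-1.11) lay below the cutoff. Ppp1r1b (1.00) and Ppp1r2 (0.69) stayed above it without a call. At the highest TrpnX control, a transcript not added to samples, 11138 genes were detected (78.3% of all genes). There 26 of 33 PP1 regulators and 11 of 13 calcineurin partners were detected. With the mean of a gene's probe sets, 8 members were detected (7 of 9 without Ppp1r1a, beside 41.4% of all genes). The cutoffs of that setting came from averaged probe sets too and were lower (406 to 515). Against them Ppp2ca fell to -1.01 and Ppp3r1 lost its call. Leaving out 1 replicate gave 10 to 13 PP1 regulators, 20 PP2A genes, 10 members and 13 to 14 member probe sets. Without Ppp1r1a these were 9 of 9 members and 11 to 12 of 18 probe sets. The shares called were 37% to 41.7% of all genes and 27.8% to 31.5% of all probe sets. Without Myh1 5997 genes were detected (42.2%), and without 4 kidney-expressed genes 5932 (41.7%). All 10 members were detected in each, or 9 of 9 without Ppp1r1a. No paired analysis was possible because the 3 samples form 1 group.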

Other observations

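Anp32a, an inhibitor of PP2A, chosen after its values were seen, gave 4242, 4727 and 1246, with replicate 3 alone far lower. Its SD of 1.07 log2 units stands beside a median of 0.13 for the PP2A list.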
